A study of Mus musculus with 34 samples.

Results

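The genes described here encode 8 isozymes of glycolysis. Some are typical of adult liver (Pfkl, Pklr) and some are better known from other tissues (Hk1, Hk2, Pfkp, Aldoa, Ldhb). Ldha was put in neither list, because its brightest probe also read strongly in liver, enough to saturate in the reference liver on 13 of 31 arrays. Probes of the 8 genes were taken by gene name. Every probe annotated to one of the 8 symbols was taken, which gave 17 of the 41174 probes on the array. All 17 were among the 31563 probes tested, that is, probes whose Cy3 signal was well above background on at least 3 arrays. Each gene is described first by its leading probe, the brightest of its tested probes.

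RNA of single mouse liver tumors and livers was hybridised in Cy3 to Agilent arrays of 60-base probes, beside a Cy5 reference of pooled C57BL/6 liver from mice of both sexes. The groups were 7 tumors with a c-Myc transgene (Myc tumors), 3 tumors with TGFα and c-Myc transgenes (TGFα/Myc tumors) and 3 tumors with a TGFα transgene, all from mice without doxycycline. Then came livers with the Myc, TGFα/Myc or TGFα transgene switched off by doxycycline for 4 or 12 weeks, with 3 arrays in each of the 6 groups, and 3 control livers with no transgene and no doxycycline. The labels give no promoter or driver for the transgenes, no strain for the sampled mice, no sex and no age, and they call every array a biological replicate.

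Glycolysis turns glucose into pyruvate. Hexokinases phosphorylate glucose, phosphofructokinases commit the sugar to the pathway, aldolases split it, pyruvate kinases make pyruvate and lactate dehydrogenases interconvert pyruvate and lactate. Adult hepatocytes rely on liver forms of several of these enzymes, among them the pyruvate kinase Pklr, and they can also run the pathway in reverse to make glucose. Hk2, Pfkp, Aldoa, Pkm2 and Ldha are prominent in muscle, brain or proliferating cells, and several of them are known targets of MYC, a transcription factor that binds the E-box CACGTG.

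3 probes that cross a splice junction, and so report spliced transcript, are shown because the largest rise, the fall and the probe-dependent result below were read at them. They come from the deposited files, with positions on mm9. The Pfkp probe lies at chr13:6581718-6583872 on the minus strand, the Pklr probe at chr3:88948907-88949425 on the plus strand and the second Ldha probe at chr7:54109426-54110355 on the plus strand.
Pfkp probe: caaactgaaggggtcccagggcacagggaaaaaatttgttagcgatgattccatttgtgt
Pklr probe: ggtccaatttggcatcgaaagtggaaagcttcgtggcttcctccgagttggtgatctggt
Ldha second probe: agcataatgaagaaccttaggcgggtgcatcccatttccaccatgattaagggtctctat

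The 250 bases before the start of Ldha and of the liver form of Pklr follow (RefSeq, GRCm38.p6), because these are the members whose promoter windows held a motif searched for. The windows of all 8 genes matched by symbol, 13 windows in all, each with 250 bases before a start and 50 after it. The Ldha stretch is chr7:46845554-46845803 on the plus strand, with the E-box CACGTG in capitals, which starts 145 and 48 bases before the start. The Pklr stretch is chr3:89136373-89136622 on the plus strand, with the pattern CACGGG, any 5 bases and CCCGTG in capitals, 170 bases before the start.
Ldha promoter: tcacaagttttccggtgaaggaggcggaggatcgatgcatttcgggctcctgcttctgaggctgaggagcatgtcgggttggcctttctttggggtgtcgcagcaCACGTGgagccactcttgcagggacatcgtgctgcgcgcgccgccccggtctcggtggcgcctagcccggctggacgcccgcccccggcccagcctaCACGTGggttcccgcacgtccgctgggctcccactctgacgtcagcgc
Pklr promoter: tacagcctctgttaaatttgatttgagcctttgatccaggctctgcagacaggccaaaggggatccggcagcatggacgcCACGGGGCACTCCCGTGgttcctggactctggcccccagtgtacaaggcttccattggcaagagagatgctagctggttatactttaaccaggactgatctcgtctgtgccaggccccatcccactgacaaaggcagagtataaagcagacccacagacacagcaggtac
Both motifs were searched on both strands. CACGTG was present in 7.15% of the 32851 windows of all genes and in no other window of the 8 genes. The second pattern was written from the well-studied carbohydrate response element of Pklr itself, so finding it there is no result, and 1 window of 32851 held it. That element is known to bind the factor encoded by Mlxipl (ChREBP), which takes part in the results below.

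Values are log2 ratios of sample over reference liver, and a difference is the change in that ratio between group means. Between 43.7% and 71.9% of probes were well above background in Cy3 on each array. How many arrays a group held sets how precise its mean is. A TGFα off 4 weeks liver (replicate 1) and the TGFα tumors 2 and 3 shared a slide whose reference had another profile, so they were left out of every test, and the fit used 31 arrays. The array labelled TGFα tumor 1 is given as values only, because 2 Myc probes stood at 3.33 and 3.50 there, high for a tumor without the Myc transgene. The first of these was saturated in Cy3 on that array, and the remaining Myc probe was at 1.41. The arrays were scanned on 12 days and 2 scanners: Myc tumors 2 to 7 were on a scanner and on days that held no other group. All Myc tumors, the Myc off 4 weeks livers and control liver 2 had one background method and all other arrays another.

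The transgene was checked at 3 Myc probes. At A_52_P108346 the 7 Myc tumors ranged from 2.10 to 6.38 and the TGFα/Myc tumors were at 5.04, 5.65 and 3.36, against 0.08, 0.25 and -1.36 in control livers. That probe was saturated in Cy3 in Myc tumor 1, which stood at 2.54. A_52_P278549 also read higher in all Myc and TGFα/Myc tumors than in all control livers, with 1.71 in TGFα/Myc tumor 3 as the lowest tumor. A_51_P102096 ranged from -1.24 to 0.93 in Myc tumors, against -0.66 to 0.11 in control livers. The Tgfa probe A_51_P415126 was at -2.41, -1.69 and -0.76 in TGFα/Myc tumors, against -0.64, -0.45 and -1.25 in control livers, and A_52_P555423 at -0.07, -0.91 and 1.51, against 1.11, 0.87 and 0.81. Neither Tgfa probe was higher in all TGFα/Myc tumors than in all control livers, so they give no check of that label.

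In Myc tumors against control livers, 4 of the 8 isozymes rose and 1 fell at its leading probe (limma on all 31563 probes, adjusted p under 0.05). Over all probes tested 34.2% passed, 18.3% higher and 15.9% lower. The members' median difference was 1.11, beside -0.01 over all probes. The risers were Hk2, Pfkl, Pfkp and Aldoa, and the one that fell was Pklr. The comparison asks how the level of each isozyme differs between tumors with the Myc transgene and livers without it.

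Hexokinase 2, the hexokinase best known from muscle, had a lowest, median and highest ratio of 0.12, 1.82 and 2.59 in Myc tumors. The single control livers were at -1.38, 0.18 and -0.24. Below, too, 3 values for Myc tumors are lowest, median and highest unless tumors are named, and 3 for control livers are single livers. All tumors but tumor 5 stood above every control liver. The difference was 2.24 ± 0.53 (SE), a 4.73-fold rise (n = 7 and 3, limma adjusted p = 0.00203). Hexokinase 1, the widely expressed form, had -0.29, 0.07 and 0.92 in Myc tumors, against -0.49, -0.15 and -0.08 in control livers. The groups overlapped, and the Hk1 difference of 0.53 ± 0.31 did not pass (limma adjusted p = 0.185). The other 5 Hk1 probes were well above background on 5 to 20 of the 31 arrays, and none passed.

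Pfkl, the liver subunit of phosphofructokinase, had 1.23, 2.26 and 2.76 as its lowest, median and highest ratio in Myc tumors. The single control livers were at 0.21, 0.77 and 0.49. Every tumor lay above every control liver, with a difference of 1.53 ± 0.29, or 2.90-fold (limma adjusted p = 0.000257). Pfkp, the platelet subunit, had 1.33, 3.27 and 4.19 in Myc tumors, against -0.54, 0.68 and -0.14 in control livers. This was the largest difference of the 8 leading probes, 3.17 ± 0.61 or 9.01-fold (limma adjusted p = 0.000332), and tumor 4 was the lowest tumor. The 2 dimmer Pfkp probes differed by 1.24 ± 0.54 and 0.86 ± 0.66 and did not pass (limma adjusted p = 0.0762 and 0.334).

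Aldoa, the aldolase of muscle and many growing cells, had 0.65, 1.18 and 2.72 in Myc tumors, against -0.61, -0.14 and -0.04 in control livers. The groups did not overlap, and the difference was 1.78 ± 0.35, or 3.44-fold (limma adjusted p = 0.000373). The second Aldoa probe, which shares a run of 27 bases with the first, gave 1.74 ± 0.32 (limma adjusted p = 0.000203), so the pair is not independent. The first probe was saturated in Cy3 on 3 arrays and the second on 2, all of them Myc tumors.

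Pklr, the pyruvate kinase of liver and red cells, was the member that fell. It had -3.09, -2.02 and -1.05 in Myc tumors, against -0.86, -0.58 and -0.73 in control livers. All tumors were below all control livers, by 1.29 ± 0.39 on the log2 scale or 2.44-fold (limma adjusted p = 0.0139). The call was lost without control liver 2 (adjusted p = 0.0549) or control liver 3 (0.0501).

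Ldha, which favours lactate formation, gave results that depended on the probe. Its leading probe had -0.71, 0.41 and 1.12 in Myc tumors, against -0.49, -0.18 and -0.42 in control livers, and the difference of 0.69 ± 0.35 did not pass (limma adjusted p = 0.129). That probe was saturated in Cy3 on 4 and in the Cy5 reference on 13 of 31 arrays. Without Myc tumor 5, the lowest tumor, its difference was 0.87 and passed (adjusted p = 0.0409). The second probe, printed above and saturated on no array, had -0.73, 0.77 and 1.37 in Myc tumors, against -0.54, -0.28 and -1.06 in control livers. There the difference of 1.24 ± 0.38 passed (limma adjusted p = 0.0141), with tumor 5 inside the control range.

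Ldhb, the lactate dehydrogenase of heart, had the widest spread among the Myc tumors of the 8 leading probes. Tumors 3, 4 and 7 were at 5.64, 6.16 and 4.45, and tumors 1, 2, 5 and 6 were at -0.80, -0.66, 0.18 and -1.20, against 1.28, 1.22 and 1.43 in control livers. Each tumor was therefore either above or below all 3 control livers. The group difference of 0.66 ± 1.16 did not pass (limma adjusted p = 0.698), with an SD of 3.29 in the tumors and 0.109 in the control livers. Myc tumors 3 and 4 carry the same number in their deposited array names, and the sources used here do not say whether these tumors came from 1 animal. With these tumors averaged as 1 sample the Ldhb difference was 0.00 ± 1.04 (limma adjusted p = 0.999), and the count of 4 higher and 1 lower among the 8 isozymes was unchanged.

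**Figure D1:**
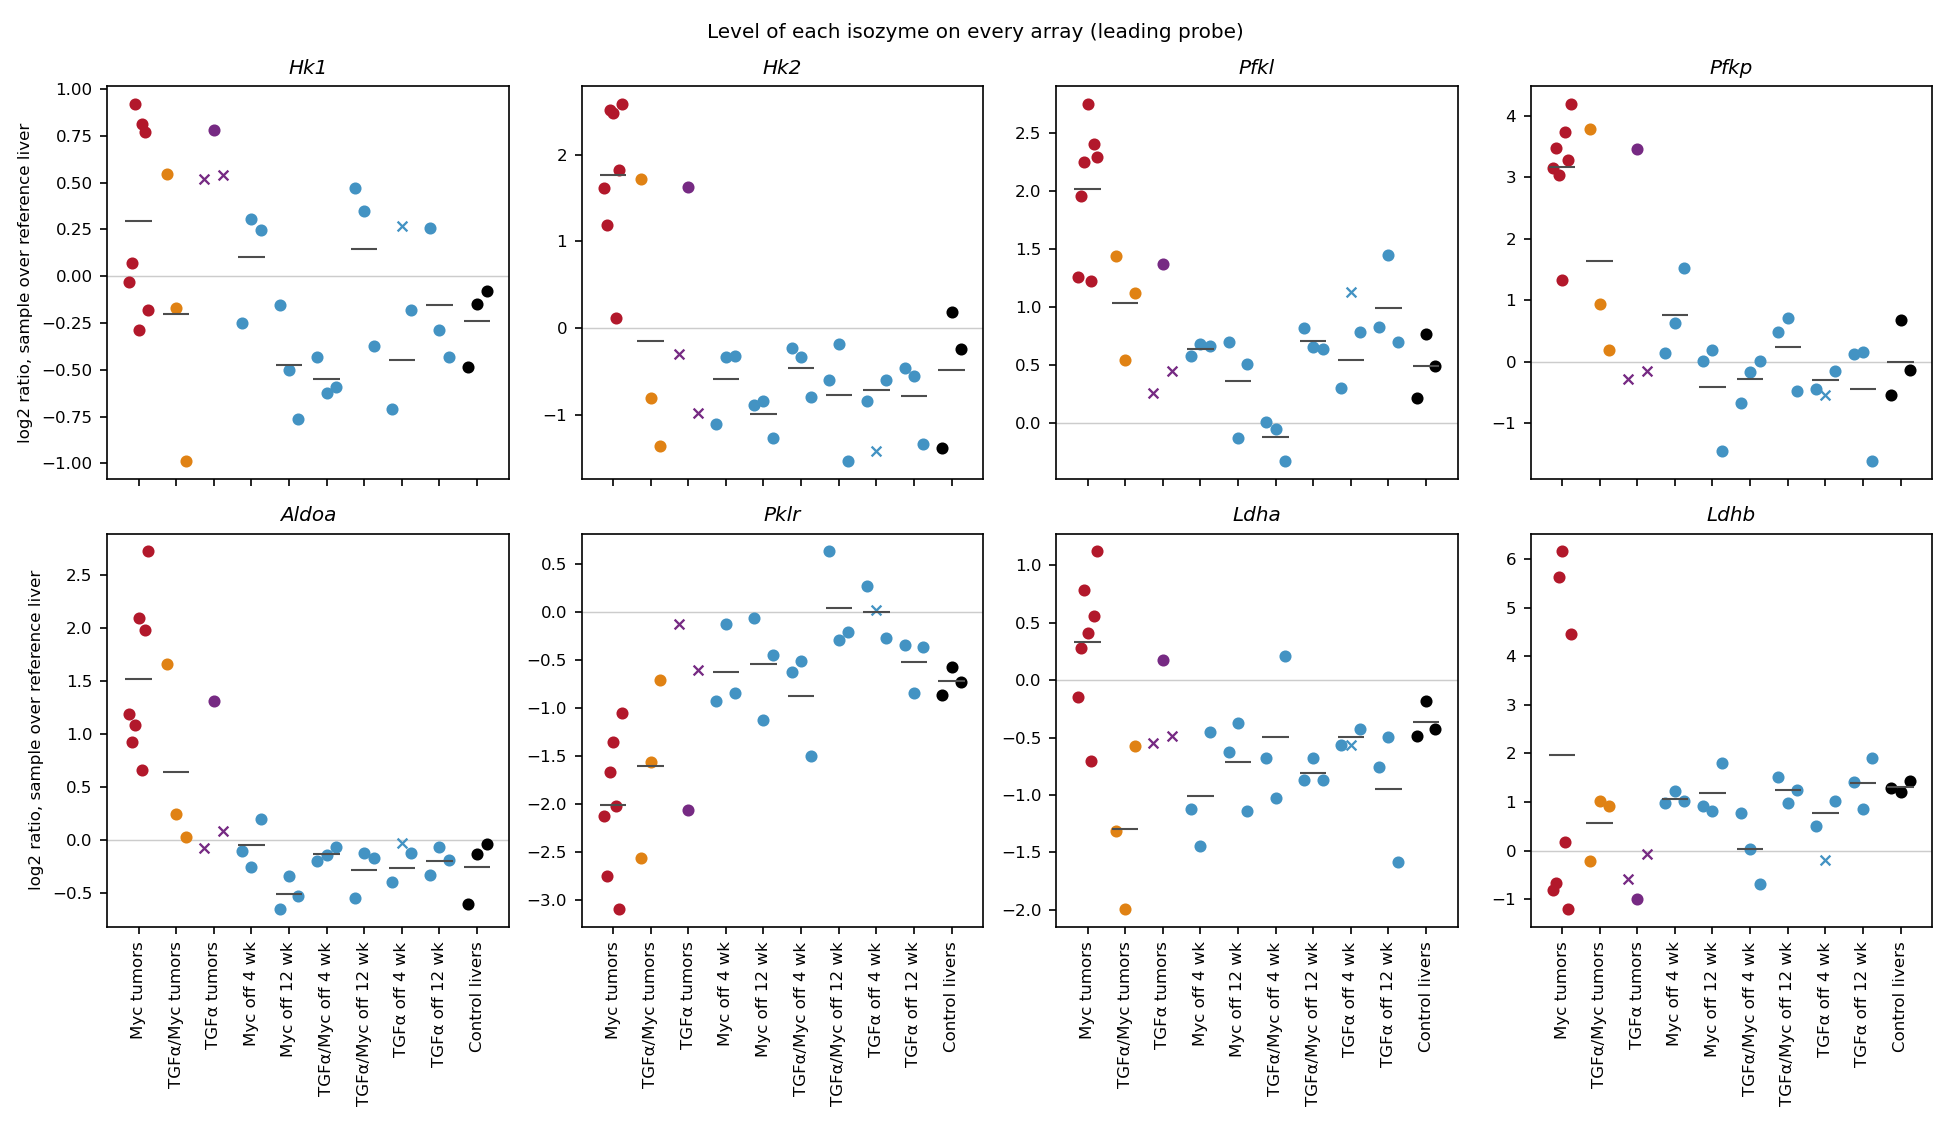
Log2 ratio of sample over reference liver (vertical axis) for the leading probe of each isozyme on every array, by group (horizontal axis). Dots are arrays, lines are group means, and crosses are the 3 arrays left out of the tests; Hk2, Pfkl, Pfkp and Aldoa lie high and Pklr low in Myc tumors, and Ldhb in Myc tumors runs from -1.20 to 6.16.

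**Figure D2:**
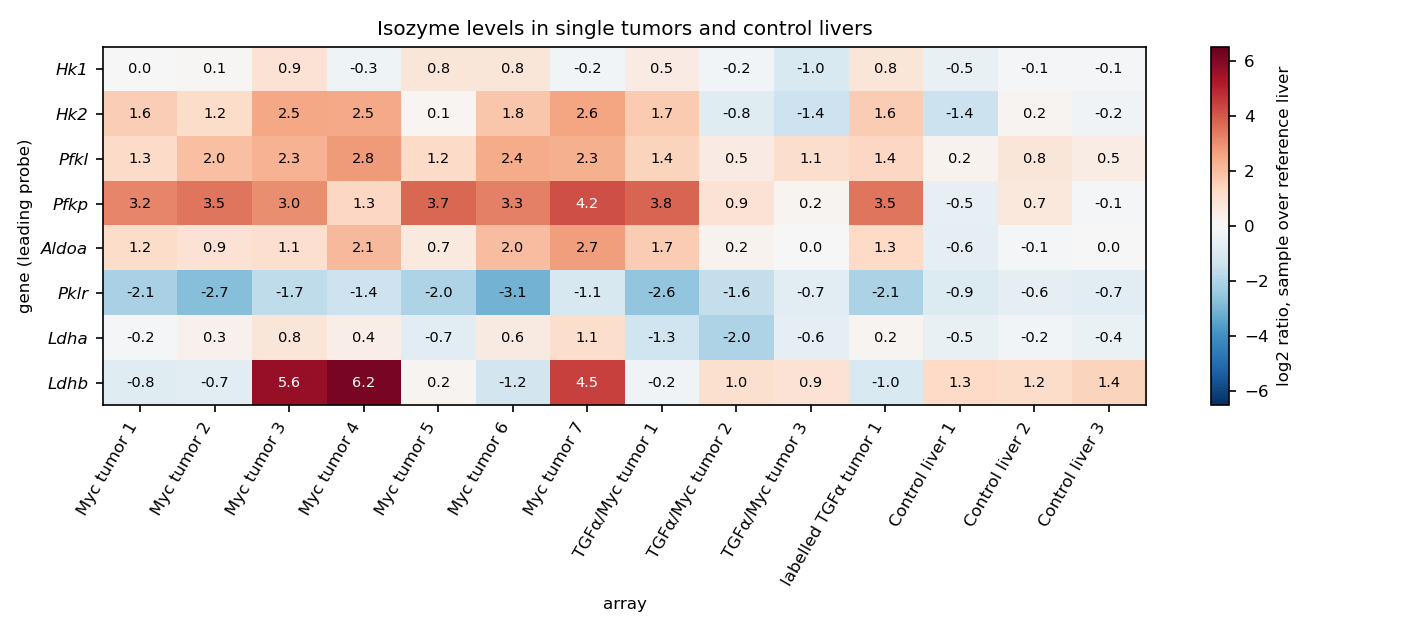
Log2 ratio of sample over reference liver (colour and printed value) for the leading probe of each gene (rows) in single tumors and control livers (columns). Ldhb is at 5.64, 6.16 and 4.45 in Myc tumors 3, 4 and 7 and below every control liver in the other Myc tumors.

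Batch terms changed these calls. With the scanner as a block, Pfkp alone was called (3.15 ± 1.04, limma adjusted p = 0.0495), and the differences were 2.10 for Hk2, 0.77 for Pfkl, 1.45 for Aldoa and -1.40 for Pklr. With the background method as a block none was called, at 1.58 for Hk2, 1.26 for Pfkl, 2.49 for Pfkp, 1.66 for Aldoa and -1.43 for Pklr. Scan day 1 held Myc tumor 1 and control liver 2, and within it the differences were 1.43 for Hk2, 0.49 for Pfkl, 2.47 for Pfkp, 1.32 for Aldoa and -1.54 for Pklr, none called. The fixed blocks for scanner and scan day rest on Myc tumor 1 as the only Myc tumor scanned with other groups. That for background method rests on control liver 2, the only control liver with the method of the Myc tumors. All 5 directions were the same under each of these terms, but for the other 6 Myc tumors scanner and group cannot be told apart. With slide as a random block all 5 calls were kept.

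**Figure D3:**
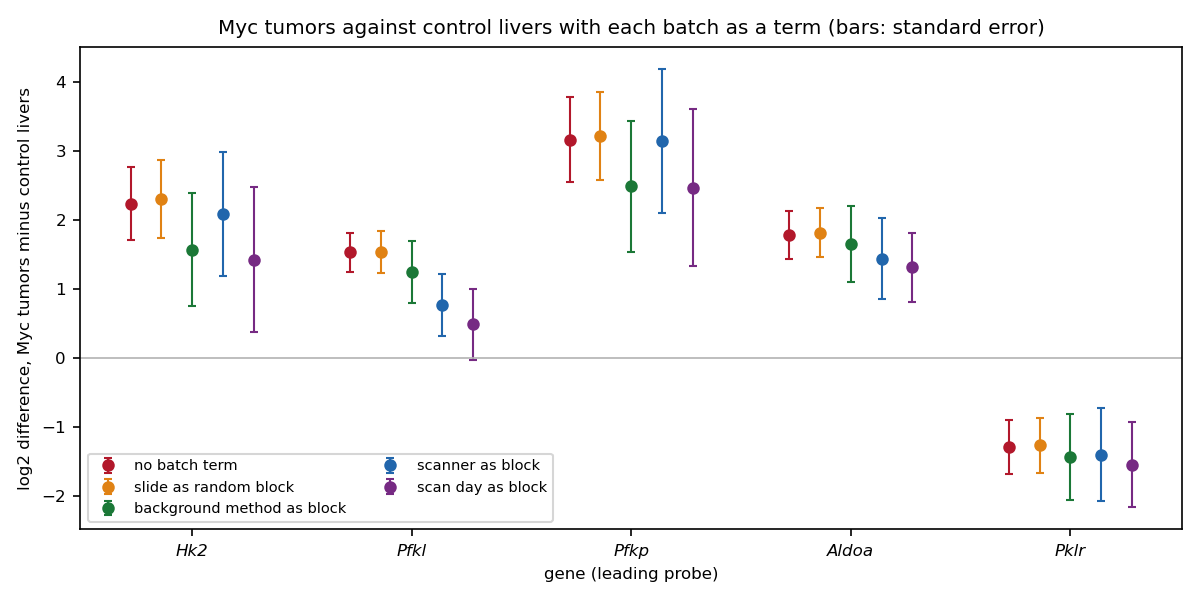
Log2 difference, Myc tumors minus control livers (vertical axis; bars are standard errors), for the 5 isozymes called (horizontal axis), without and with each batch as a term. No point crosses 0, while Pfkl is 1.53 without a batch term and 0.49 ± 0.51 with scan day as a block, where its bar crosses 0.

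Markers of other cells moved beside these results. All 8 of 8 genes of dividing cells and 4 of 7 neutrophil and 4 of 6 red cell genes rose in Myc tumors against control livers, while 9 of 11 hepatocyte genes fell. The mean ratio of the hepatocyte list ranged from -3.00 to -0.96 in Myc tumors, against -0.23 to -0.10 in control livers. The neutrophil list ranged from 1.06 to 4.75 in Myc tumors, against 0.51 to 0.84 in control livers. The red cell list ranged from 0.81 to 3.02 in Myc tumors, against -1.36 to -0.30 in control livers, and the dividing cell list from 0.71 to 4.97, against -0.98 to -0.29. All 11 hepatocyte genes stayed well above background in every tumor. Their part in the isozyme results was not tested, and in bulk RNA fewer cells of a type and less RNA per cell cannot be told apart.

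Of 32 other genes of the pathway and its control, 31 were tested. In Myc tumors against control livers 13 rose and 9 fell, with a median difference of 0.58. The risers included Pkm2, the array's older name of the pyruvate kinase gene Pkm, by 2.88 ± 0.57 (limma adjusted p = 0.000442), and Slc16a3, a lactate exporter, by 2.85 ± 0.38. Which transcript forms of the gene the Pkm2 probe reads was not checked. The risers also included steps of the lower pathway, with Eno1 higher by 2.09 ± 0.43, Pgk1 by 1.59 ± 0.30 and Pgam1 by 1.48 ± 0.30, and the glucose transporter Slc2a3 by 1.28 ± 0.42. Those that fell included liver genes of sugar handling. Slc2a2, the liver glucose transporter, differed by -1.73 ± 0.52 and Khk, which phosphorylates fructose, by -1.005 ± 0.30. Mlxipl, whose product binds the Pklr element printed above, differed by -1.42 ± 0.31 (limma adjusted p = 0.00113).

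Not every gene followed tissue type. Pfkm, the muscle phosphofructokinase, had the largest fall of the list, -2.08 ± 0.24 (limma adjusted p = 1.5e-06), while the liver subunit Pfkl rose. Pdk1, a kinase that inhibits pyruvate dehydrogenase, fell by 1.13 ± 0.34 on the log2 scale.

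**Figure D4:**
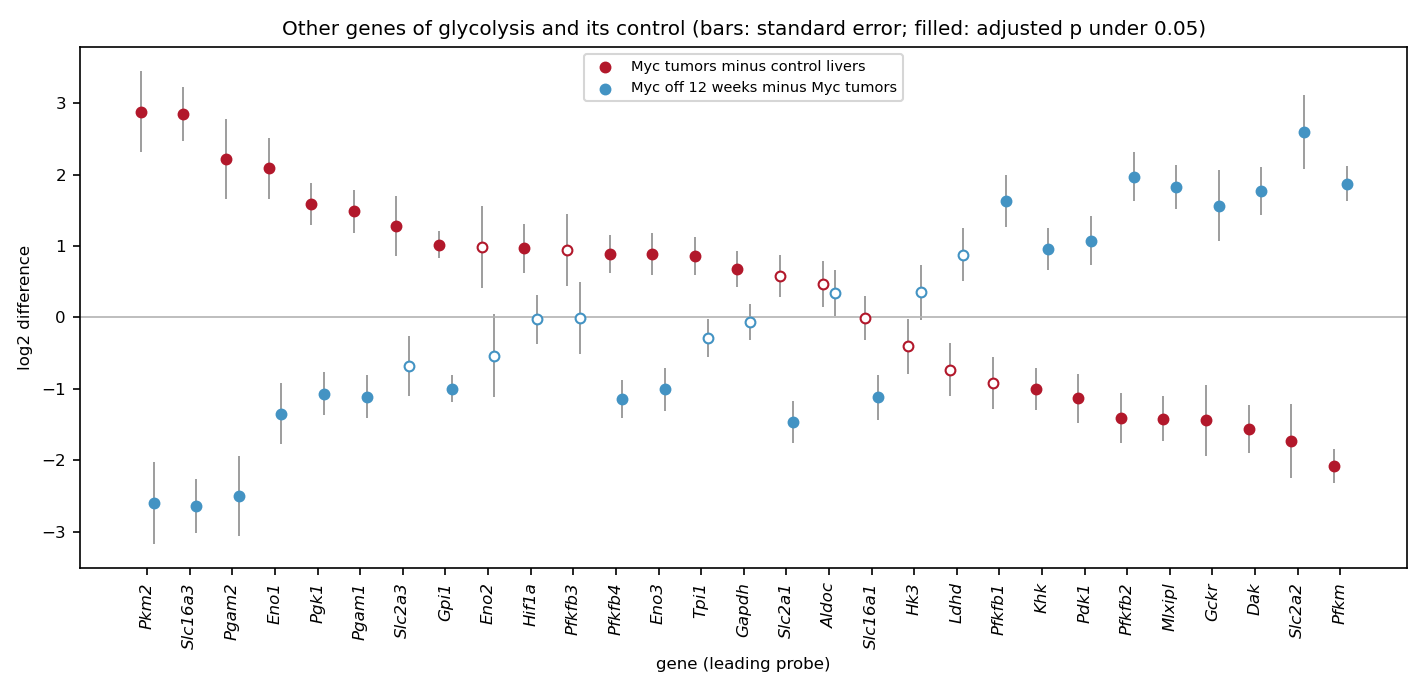
Log2 difference (vertical axis; bars are standard errors) of 29 other pathway genes (horizontal axis), for Myc tumors minus control livers (red) and Myc off 12 weeks minus Myc tumors (blue); filled points passed adjusted p under 0.05. Pkm2 (2.88) and Slc16a3 (2.85) lead the red points and Pfkm (-2.08) is lowest; both comparisons use the same 7 Myc tumors.

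In TGFα/Myc tumors against control livers none of the 8 isozymes passed at the leading probe (limma adjusted p), where 6.42% of all probes did. At an unadjusted limma p under 0.05 it was 3 of the 8, beside 6889 of all 31563 probes. The members' median difference was 0.18, beside -0.07 over all probes. The 3 tumors differed among themselves. Tumor 1 had Hk2 at 1.72, Pfkp at 3.79 and Aldoa at 1.66, within the Myc tumor range for each. For Hk2, tumors 2 and 3 were at -0.80 and -1.36, against -1.38, 0.18 and -0.24 in control livers. For Pfkp they were at 0.94 and 0.19, against -0.54, 0.68 and -0.14 in control livers. The group differences were 0.33 ± 0.62 for Hk2 and 1.64 ± 0.72 for Pfkp (limma adjusted p = 0.814 and 0.18), and Pfkp passed without tumor 3 (2.37, adjusted p = 0.0443).

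For Aldoa the TGFα/Myc tumors were at 1.66, 0.24 and 0.03, against -0.61, -0.14 and -0.04 in control livers, with no overlap and a difference of 0.90 ± 0.41 that did not pass (limma adjusted p = 0.196). Pklr was at -2.56, -1.56 and -0.71, against -0.86, -0.58 and -0.73 in control livers, and its difference of -0.89 ± 0.47 did not pass (0.272). Ldha was at -1.32, -1.99 and -0.58, against -0.49, -0.18 and -0.42 in control livers, below all 3, with a difference of -0.93 ± 0.41 (0.186). The second Ldha probe differed by -0.42 ± 0.45 with overlap (0.646). Scan day 7 held TGFα/Myc tumors 1 and 2 and control liver 1, and within it Aldoa differed by 1.56 (adjusted p = 0.0531) and Pfkp by 2.91 (0.102). Of the other pathway genes, Gpi1 rose by 0.75 and Pdk1 fell by 1.54 on the log2 scale, and 8 of 8 genes of dividing cells rose.

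In TGFα/Myc tumors against Myc tumors, Hk2, Pfkl and Ldha were lower at their leading probes and none higher, where 28.2% of all probes passed, 16.4% lower and 11.8% higher. The members' median difference was -1.19, beside -0.06 over all probes. For Ldha the TGFα/Myc tumors were at -1.32, -1.99 and -0.58, against a lowest, median and highest of -0.71, 0.41 and 1.12 in Myc tumors, a difference of -1.62 ± 0.35 (limma adjusted p = 0.0014). The second Ldha probe differed by -1.66 ± 0.38 (0.00237). From the sample channel alone, without the reference in which the leading probe was often saturated, the leading probe differed by -0.51 and was not called (adjusted p = 0.261), and the second by -1.65 (0.00345). The leading Aldoa probe differed by -0.88 ± 0.35 (limma adjusted p = 0.0603), and the second was called at -0.89 ± 0.32 (0.0391). Hk2 differed by -1.91 ± 0.53 (0.0089) and Pfkl by -0.99 ± 0.29 (0.0125), and in each of these 3 genes the groups overlapped. The Hk2 call was lost without TGFα/Myc tumor 2 (-1.58, adjusted p = 0.0814) or tumor 3 (-1.30, 0.0984), and the Pfkl call without tumor 2 (-0.74, 0.126). Without TGFα/Myc tumor 1, 5 isozymes passed, Pfkp (-2.60) and Aldoa (-1.39) being added. No scan day held both groups. With the scanner as a block the differences were -1.15 for Ldha, -1.76 for Hk2 and -0.22 for Pfkl, none called. With the background method as a block they were -1.35, -0.91 and -0.57 for the same genes, none called. That block links these groups only through the control livers. Beside them 4 of 7 neutrophil and 3 of 6 skeletal muscle genes were lower in TGFα/Myc tumors than in Myc tumors, and 4 of 11 hepatocyte and 3 of 6 biliary genes were higher. Of 8 endothelial genes 4 were higher and 1 lower, and of 8 macrophage genes 3 were higher and 3 lower. Their part was not tested.

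The next comparisons ask whether the isozymes differ once the transgene is off. They use the same Myc tumors as above, so the tumor arrays enter each of them. In every comparison of off livers with tumors, transgene state, doxycycline and tumor or liver tissue changed together and cannot be told apart. In livers 4 weeks after Myc was switched off, against Myc tumors, 5 of 8 isozymes fell and 1 rose, where 31.2% of all probes passed, 17.2% lower and 14.1% higher. The members' median difference was -1.36, beside -0.02 over all probes.

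Hk2 was at -1.10, -0.33 and -0.33 after 4 weeks, below every Myc tumor, with a difference of -2.35 ± 0.53 (limma adjusted p = 0.00158). Pfkl was at 0.58, 0.68 and 0.66, again below every Myc tumor, with -1.39 ± 0.29 (0.000806). Pfkp was at 0.14, 0.63 and 1.52, which reached into the range of Myc tumors through tumor 4, with -2.41 ± 0.61 (0.00418). These are the genes that were high in Myc tumors. Aldoa was at -0.11, -0.25 and 0.20, below every Myc tumor, with -1.58 ± 0.35 (0.00134). Ldha was at -1.12, -1.45 and -0.45, with -1.33 ± 0.35 (0.00526), and its second probe gave -1.88 ± 0.38 with no overlap. Pklr was at -0.93, -0.12 and -0.84, above every Myc tumor, and rose by 1.38 ± 0.40 (0.00982). Without Myc off 4 weeks replicate 2 the Pklr and Ldha calls were lost (adjusted p = 0.0856 and 0.0542).

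These livers shared scan day 1 with Myc tumor 1, and all had the background method of the Myc tumors. Within that day the 3 livers differed from tumor 1 by -2.20 for Hk2, -0.62 for Pfkl, -2.39 for Pfkp, -1.24 for Aldoa, -0.85 for Ldha and 1.49 for Pklr, none called with 1 tumor. Within slide 1, which held tumor 1 and 1 such liver, the values were -2.72, -0.68, -3.01, -1.29, -0.97 and 1.19 for the same genes. Both groups had that 1 background method throughout, so it could not change the 6 differences as a block, and their calls were as without it. Of the other pathway genes 8 rose and 9 fell. Slc16a3 differed by -2.56, Pkm2 by -2.39, Slc2a2 by 1.96, Mlxipl by 1.95 and Pfkm by 1.87. All 8 genes of dividing cells, 4 of 6 skeletal muscle genes, 3 of 6 red cell genes and 1 of 7 neutrophil genes fell, and 10 of 11 hepatocyte and 4 of 8 endothelial genes rose. Of 8 macrophage genes 4 rose and 2 fell. Their part in the isozyme results was not tested.

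After 12 weeks off, against Myc tumors, the count was again 5 lower and 1 higher, where 34% of all probes passed, 17.7% lower and 16.3% higher. Hk2 was at -0.88, -0.83 and -1.26, with a difference of -2.75 ± 0.53 (limma adjusted p = 0.000321). Pfkp was at 0.01, 0.18 and -1.45, with -3.59 ± 0.61, or 12-fold lower (9.96e-05). Both genes lay below every Myc tumor. Pfkl was at 0.70, -0.14 and 0.50, with -1.67 ± 0.29 (0.000115), and Aldoa at -0.66, -0.34 and -0.53, with -2.03 ± 0.35 (0.000105), again with no overlap. Ldha was at -0.63, -0.38 and -1.14, with -1.04 ± 0.35 (0.0232), a call lost without Myc off 12 weeks replicate 1 (adjusted p = 0.0513) or 3 (0.14), and its second probe gave -1.38 ± 0.38 (0.00698). From the sample channel alone the leading Ldha probe differed by -0.27 and was not called (adjusted p = 0.525), and the second by -1.51 (0.00423). Pklr was at -0.06, -1.13 and -0.45 and rose by 1.46 ± 0.40 (0.00594), with 1 liver inside the range of the Myc tumors. All 8 genes of dividing cells, 4 of 7 neutrophil, 4 of 6 skeletal muscle and 3 of 6 red cell genes fell beside them, and 8 of 11 hepatocyte genes rose. Of 8 stellate and fibroblast genes 3 rose and 4 fell, and of 8 macrophage genes 4 rose and 2 fell. Their part was not tested.

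No Myc tumor shared a scan day with these livers. With the scanner as a block Pfkp alone was called (-3.57, limma adjusted p = 0.034), and the others were -2.61 for Hk2, -0.90 for Pfkl, -1.69 for Aldoa, -0.56 for Ldha and 1.58 for Pklr. With the background method as a block, which links these groups only through the control livers, none was called. The values were -1.76 for Hk2, -1.25 for Pfkl, -2.57 for Pfkp, -1.84 for Aldoa, -0.77 for Ldha and 1.68 for Pklr. With scan day as a block, which links these groups only through arrays of other groups, none was called and Ldha changed sign to 0.08.

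**Figure D5:**
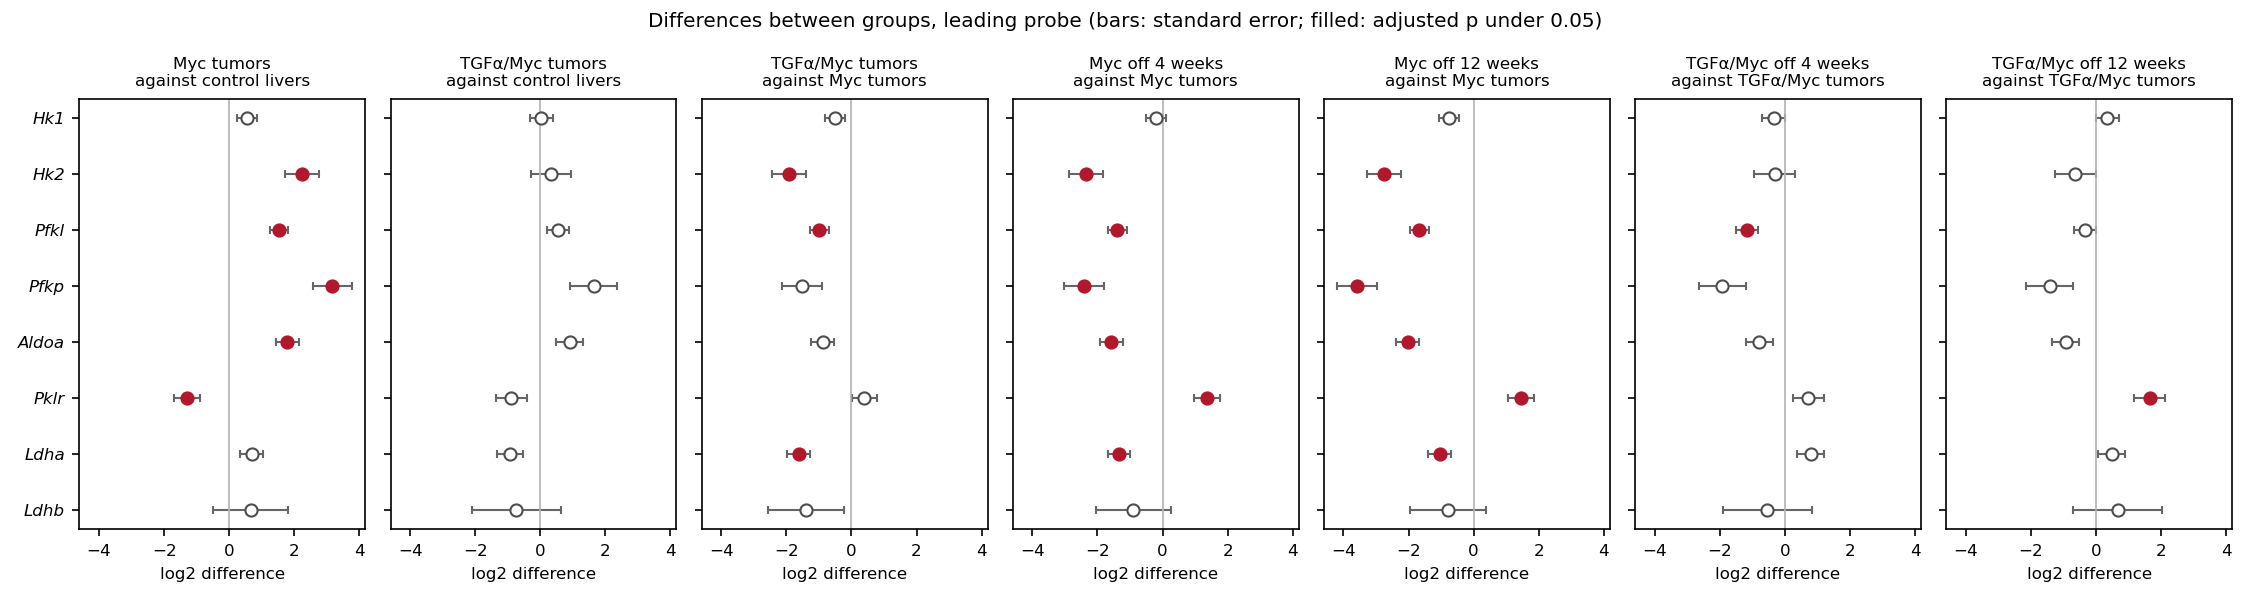
Log2 difference between group means (horizontal axis; bars are standard errors) for the leading probe of each isozyme (vertical axis) in 7 comparisons; filled points passed adjusted p under 0.05. Hk2, Pfkl, Pfkp and Aldoa are filled and above 0 in Myc tumors against control livers, and below 0 in both Myc off groups against Myc tumors.

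In TGFα/Myc livers 4 weeks off against TGFα/Myc tumors, Pfkl alone passed and was lower, where 18.5% of all probes passed and 8.16% were lower. It was at 0.00, -0.05 and -0.34 in the livers, against 1.44, 0.54 and 1.12 in the tumors, with no overlap and a difference of -1.16 ± 0.34 (limma adjusted p = 0.0191). Pfkp differed by -1.92 ± 0.72 with no overlap and did not pass (0.0655). The Pfkl call was lost without TGFα/Myc tumor 1 (-0.96, adjusted p = 0.107) or without replicate 3 of the livers (-1.06, 0.0718). After 12 weeks Pklr alone passed at its leading probe and was higher, where 15.5% of all probes passed and 8.68% were higher. It was at 0.63, -0.29 and -0.21 in the livers, against -2.56, -1.56 and -0.71 in the tumors, with no overlap and a rise of 1.65 ± 0.47 (limma adjusted p = 0.0186). That call was lost without tumor 1 (1.18, 0.144), without replicate 1 of the livers (1.36, 0.095) and with slide as a random block (1.42, 0.0986). The second, dimmer Pfkp probe (A_52_P572045) was also called there, at -2.80 ± 0.64 or 6.97-fold lower with no overlap (limma adjusted p = 0.00477), while the leading Pfkp probe differed by -1.41 ± 0.72 (0.191). In both of these comparisons all 8 genes of dividing cells fell, and 4 of 11 hepatocyte genes rose after 4 weeks and 2 of 11 after 12 weeks. Of the 8 macrophage genes 2 and 1 rose, and the part of these markers was not tested.

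The difference between off livers and tumors was compared directly between the genotypes, as that in TGFα/Myc mice minus that in Myc mice. It is called a response below, though transgene state, doxycycline and tumor or liver tissue changed together in it. Of 16 such differences, 8 genes at 4 and 12 weeks, only that of Ldha at 4 weeks passed, at 2.13 ± 0.54 (limma adjusted p = 0.00756). Over all probes 19.4% passed at 4 weeks and 10.4% at 12 weeks, so the members' count was not above these shares. The Ldha means were -1.295 in TGFα/Myc and 0.33 in Myc tumors, and -0.50 and -1.01 in their livers 4 weeks off. The tumors thus differed more than the livers, and they are the arrays of the tumor comparison above, so this result is not separate from it. Ldha changed by 0.80 ± 0.41 in TGFα/Myc mice, which did not pass, and by -1.33 in Myc mice. The second Ldha probe gave 2.06 ± 0.59 (adjusted p = 0.0165), with changes of 0.18 in TGFα/Myc mice and -1.88 in Myc mice. In alternatives chosen after seeing the data, with the scanner as a block the 2 probes gave 1.65 ± 0.72 and 2.13 ± 0.80, and neither passed (adjusted p = 0.161 and 0.103). From the sample channel alone the leading probe gave 0.99 and was not called (0.208), and the second gave 2.32 (0.0134). For Hk2 the difference of responses was 2.04 ± 0.82 at 4 weeks (0.08) and 2.13 ± 0.82 at 12 weeks (0.0922), and for Pfkl 1.33 ± 0.45 at 12 weeks (0.0549).

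In none of the 6 off groups did the leading probe of an isozyme pass against control livers (limma, 0 of 8 at adjusted p under 0.05 and 0 at an unadjusted p under 0.05 in each). Of the other probes none passed after adjustment, and 2 dim Hk1 probes had an unadjusted p under 0.05, A_51_P249024 in Myc off 12 weeks (-1.23, adjusted p = 0.284) and A_52_P9337 in TGFα off 4 weeks (-1.59, 0.405). In 4 of the 6 groups 1 or 2 leading probes did not overlap the control livers. The share of all probes without overlap was not computed, so that count is not read as a result. All of these comparisons share the same 3 control livers. The fit also shares 1 spread per probe over all groups, and for Ldhb the Myc tumors widened it (SD 3.29, against 0.109 in control livers). The Ldhb test was therefore insensitive here, and its lack of a call does not show control level. In TGFα/Myc off 4 weeks Ldhb ran from -0.69 to 0.77, against 1.22 to 1.43 in control livers. Over all probes the shares that passed were 0.0222% for Myc off 4 weeks, 0.0127% for Myc off 12 weeks, 0.374% for TGFα off 4 weeks, 0.158% for TGFα off 12 weeks, 2.36% for TGFα/Myc off 4 weeks and 0.105% for TGFα/Myc off 12 weeks. After adjustment few probes of any kind passed there, so the members' adjusted count of 0 is near the background. Probes at an unadjusted limma p under 0.05 ran from 1818 of 31560 (Myc off 4 weeks) to 5731 of 31562 (TGFα/Myc off 4 weeks). The median differences of the members were between -0.24 and 0.12.

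By group mean the order of Pfkp levels was Myc tumors (3.17 ± 0.90, SD), TGFα/Myc tumors (1.64 ± 1.90) and then control livers with the off groups, from 0.76 to -0.45, which did not separate beyond their spread. For Pklr the order from the low end was Myc tumors (-2.01 ± 0.73), TGFα/Myc tumors (-1.61 ± 0.93), TGFα/Myc off 4 weeks (-0.88 ± 0.54) and control livers (-0.72 ± 0.14). Neighbours in that order overlapped. Ldhb was between 0.04 and 1.39 in the means of control and off groups and 0.57 ± 0.69 in TGFα/Myc tumors.

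The array labelled TGFα tumor 1 had Hk1 at 0.78, Hk2 at 1.63, Pfkl at 1.37, Pfkp at 3.46, Aldoa at 1.31 and Ldha at 0.17, each above the highest control liver. Pklr was at -2.06 and Ldhb at -0.99, each below the lowest control liver. All 8 values lay within the range of the Myc tumors. On the slide with the other reference profile, Hk2 was at -0.29 and -0.98 in TGFα tumors 2 and 3, against -1.42 in the TGFα off 4 weeks liver beside them. Pfkp was at -0.28 and -0.16 in those tumors, against -0.54 in that liver, and Pklr at -0.13 and -0.61, against 0.02. These differences were not tested.

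Across the 31 arrays the members' levels moved together to different degrees, as a description over arrays that share groups, slides and one reference. Pearson's r was 0.91 between Hk2 and Aldoa, 0.84 between Hk2 and Pfkp, 0.83 between Pfkl and Aldoa and -0.76 between Pfkp and Pklr. Within the 7 Myc tumors the same pairs had r of 0.72, -0.35, 0.69 and -0.15. Ldhb had r between -0.04 and 0.40 with the others over the 31 arrays. Within the Myc tumors it had 0.84 with Pklr, 0.71 with Hk2, 0.62 with Pfkl and -0.44 with Pfkp. Among the 14588 genes ranked, the genes most like Hk2 were Cmtm7 (r = 0.94), Pkm2 (0.94) and Fem1b (0.94), those most like Pfkl were Slc16a3 (0.92), Snd1 (0.92) and Gipc1 (0.92), and those most like Pfkp were Acss1 (0.94), Spink3 (0.94) and Rasl12 (0.93). Those most like Aldoa were Fem1b (0.94), Dhodh (0.94) and A2m (0.93), and those most like Pklr were Aacs (0.88), Mupcdh (0.88) and Csrp3 (0.88). Ldhb was most like Nkd1 (0.89), Dennd2a (0.87) and Trpv4 (0.83), Ldha was most like Sh3d19 (0.90) and Ss18 (0.90), and Hk1 was most like Dok1 (0.85), Arrb1 (0.81) and Def6 (0.80).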

How the data were processed

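The arrays were 2-colour Agilent arrays, with the sample in Cy3 and the pooled reference liver in Cy5, and no dye was swapped. Per the file headers, the authors' scanner software (Feature Extraction 9.1.3.1, or 10.7.3.1 for Myc tumors 2 to 7) gave deposited spot intensity values, background-subtracted and dye-normalized, and a deposited log10 ratio of Cy5 over Cy3. The deposited series matrix holds the authors' log2 values with unstated centring, used as an alternative; turned to sample over reference, its columns correlated with the ratios used here at r = 0.364 to 0.972, and their medians ran from -0.374 to 0.445. Per the submitters' processing notes, limma was used, with no version given.

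The log10 ratio was turned to log2 of sample over reference. Spots called outliers (0.0813%) were set missing and spots of a probe averaged. Tests used limma 3.58.1 in R 4.3.3 on 31 arrays, with a mean per group, eBayes and Benjamini-Hochberg adjustment over all probes tested. The code was tested on simulated data. Members, gene lists and tests were chosen with earlier results of these data known. The text names every member, a list of 32 pathway genes with examples, all Myc and Tgfa probes and the 3 genes most like each member, apart from items not reported here. The marker lists were hepatocyte, macrophage, endothelial, stellate and fibroblast, biliary, lymphocyte, neutrophil, red cell, skeletal muscle, intestine and dividing cells. In Myc tumors against control livers, macrophage genes were 2 higher and 4 lower of 8, endothelial 0 and 3 of 8, stellate and fibroblast 2 and 3 of 8, biliary 0 and 2 of 6, lymphocyte 1 and 2 of 8, skeletal muscle 3 and 0 of 6, and intestine 2 and 1 of 4.

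Replicate numbers of the labels were checked as pairs: the correlation of deviations from group means ran from -0.308 to 0.409 over 38 pairs. Every pair was over 0.1 only for TGFα off 12 weeks and for TGFα/Myc off 12 weeks against control livers. Their numbers were then taken as pairs on this check alone, and only in the alternative with a replicate block. The main tests used no pairs, and the labels name none. Alternatives changed the values, centring, filter, arrays fitted, batch terms and replicates.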

Additional observations from a re-analysis of the deposited data

Results flagged for a closer look

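Pfkp in Myc tumors had 1 sample far from the others: tumor 4 stood at 1.33, and its gap to the next tumor was 0.597 of the group's range, above Dixon's critical value for 7 samples. The 8 genes were each tested this way in the Myc tumors and 1 stood out, where chance gives about 1 in 20. The response of Ldha to 4 weeks off differed between genotypes, by 2.132 as TGFα/Myc minus Myc (limma adjusted p = 0.00756), with the scanner as a block by 1.65 (0.161), and from the sample channel alone by 0.99 (0.208). It uses the tumor arrays in which Ldha already differed between genotypes, and 19.4% of all probes passed this test. The array labelled TGFα tumor 1, which entered no comparison, was above the highest control liver for Hk1 (0.783), Hk2 (1.631), Pfkl (1.371), Pfkp (3.457), Aldoa (1.315) and Ldha (0.172). Its neutrophil list averaged 4.44 and its red cell list 2.77, against 0.51 to 0.84 and -1.36 to -0.30 in control livers, and their part in these values was not tested.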

How the results depend on the processing

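Over all alternatives, apart from leaving out each replicate in turn, 1893 values for single isozymes kept direction and call or passed in neither fit. Of the others, 81 lost a call, 18 gained one and 3 that were called changed sign, and the cause of the changes was not tested. The 3 came with scan day as a block: Hk2 and Pfkl in TGFα/Myc tumors against Myc tumors at 0.412 and 0.295, and Ldha in Myc off 12 weeks against Myc tumors at 0.076. The numbers of isozymes called that moved by over 1.5 times were as follows. In Myc tumors against control livers (5 called) it was 0 with scan day or background method as a block and within scan day 1, and 1 with the scanner as a block. In TGFα/Myc tumors against Myc tumors (3 called) it was 0 with scan day, scanner or background method as a block, and 1 with only the groups compared in the fit. In Myc off 4 weeks against Myc tumors (6 called) it was 0 within scan day 1, within slide 1 and with either the scanner or the scan day as a block. In Myc off 12 weeks against Myc tumors (6 called) it was 0 with scan day or background method and 1 with the scanner as a block. In TGFα/Myc off 4 weeks against TGFα/Myc tumors (1 called) it was 0 with normexp and loess, with the sample channel alone and with only the groups compared, and 2 with a sex score as a covariate. In TGFα/Myc off 12 weeks against TGFα/Myc tumors (1 called) it was 0 with those first 3 settings, with slide as a random block and with scan day as a block. The sample channel alone kept the count in TGFα/Myc tumors and in Myc off 12 weeks against Myc tumors, but there Ldha lost its call (-0.51 and -0.27), while Aldoa (-1.45) and Hk1 (-1.30) gained one. In a further alternative Myc tumor 5 and TGFα/Myc tumor 3 were left out together, each the lowest of its group at the Myc probes A_52_P108346 and A_52_P278549. It was chosen after seeing the data, like the background method and the exact 0 ratios set missing. The count became 2 (1 higher, 1 lower) in TGFα/Myc tumors against control livers. Against TGFα/Myc tumors it became 3 (1 higher, 2 lower) in TGFα/Myc off 4 weeks and 2 (1 higher, 1 lower) in TGFα/Myc off 12 weeks.

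With the replicate block, the count was 2 in both TGFα/Myc off groups against TGFα/Myc tumors, with Pfkp at -1.92 (limma adjusted p = 0.0475) and Aldoa at -0.92 (0.0497) added. Pfkl in TGFα/Myc tumors against Myc tumors (-0.79, 0.0745) and Ldha in Myc off 12 weeks against Myc tumors (-1.02, 0.055) lost their calls. For the comparisons whose numbers were taken as pairs, the block changed no call.

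Leaving out each replicate in turn gave 4 to 6 calls in Myc tumors against control livers, 0 to 1 in TGFα/Myc tumors against control livers, 1 to 5 in TGFα/Myc tumors against Myc tumors, 4 to 6 and 5 to 7 in Myc off 4 and 12 weeks against Myc tumors, 0 to 2 in each TGFα/Myc off group against TGFα/Myc tumors, and 0 to 0 in the 6 off groups against control livers. Signal over background limits the 5 dim Hk1 probes, and saturation limits the leading Ldha probe.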
